A study of Homo sapiens with 6 samples.

Results

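Axon guidance ligands and receptors were compared between MCF10A-SNAI1 and MCF10A cells. The group held the Eph receptors and ephrins, the semaphorins of classes 3 to 7 with their plexin and neuropilin receptors, the slits with the Robo receptors, and the netrins NTN1 and NTN4 with the UNC5 receptors and DCC. Members were taken by family name, and the families were chosen with earlier results of these data known. Of 66 listed genes, 64 had a probe set annotated with exactly 1 symbol, out of 18417 genes measured in all, and the brightest such probe set stood for each gene. MCF10A cells are human mammary epithelial cells that were immortalized but form no tumors, and they were measured untransfected. MCF10A-SNAI1 was made from MCF10A cells by transfection of a SNAI1-Flag plasmid with a CMV enhancer and a chicken beta-actin promoter, followed by puromycin selection. According to the article it was generated at the University of Florida, whereas the MCF10A cells were an ATCC purchase received from Bonn. That the measured MCF10A stock was its parent is not stated. Both were grown in mammary epithelial medium with cholera toxin. Each line was measured on 3 Affymetrix HuGene arrays. Effects of SNAI1 cannot be told apart from those of the plasmid, of puromycin selection, of cell stock and laboratory or of separate passage. The article describes the transcriptomes of each line as independently reproduced, without saying at which step, and p-values measure the spread between these arrays.

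Values are log2 expression, each fold change is MCF10A-SNAI1 minus MCF10A on the log2 scale, and a gene was called at an adjusted p below 0.01 from limma and a change above 2-fold. SNAI1 itself lay at 10.50, 10.53 and 10.50 on the MCF10A-SNAI1 arrays and at 5.80, 5.73 and 5.77 on the MCF10A arrays. Markers of basal mammary epithelium were called lower for 6 of 6 measured genes, and their summed level lay between 11.82 and 11.88 in MCF10A-SNAI1 cells and between 14.85 and 14.94 in MCF10A cells (log2 of the sum). Of 7 general epithelial markers 4 were called lower, and of 10 mesenchymal markers 7 were called higher. Of the epithelial markers not called, KRT8 was at 0.95 and KRT18 at -0.65, both at an adjusted p below 0.01 from limma. GRHL2 did not pass, at -0.11. The summed epithelial level was 12.70 to 12.74 in MCF10A-SNAI1 and 12.93 to 13.01 in MCF10A cells. VIM, PDGFRB and THY1 were not called, at 0.06, 0.40 and 0.08. The summed mesenchymal level was 14.81 to 14.90 in MCF10A-SNAI1 and 13.11 to 13.21 in MCF10A cells. Many members are best known from neurons and vessels, and of 7 endothelial and 8 neuronal markers none was called by limma. At an adjusted p below 0.01 alone, none of the endothelial and 1 of the neuronal markers passed, SNAP25 with a log2 fold change of 0.93. The summed endothelial level was 8.61 to 8.74 in MCF10A-SNAI1 and 8.70 to 8.72 in MCF10A cells, and the summed neuronal level was 8.35 to 8.64 in MCF10A-SNAI1 and 8.27 to 8.32 in MCF10A cells. Of 5 leukocyte markers CD14 was called higher, at 1.03, and CD68 passed the adjusted p from limma under 2-fold, at 0.99, whereas PTPRC, CD3E and ITGAM did not pass, at -0.01, -0.16 and 0.15. The summed level of the 5 was 9.50 to 9.61 in MCF10A-SNAI1 and 8.64 to 8.71 in MCF10A cells. No marker was at 0, because the table holds no zeros and no detection calls, and the part of other cell types in the results below was not tested.

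These families steer growing axons by attraction and repulsion, and epithelial and endothelial cells use the same proteins at cell borders. Ephrins are tethered to the cell membrane and bind Eph receptor tyrosine kinases on the neighbouring cell, where they control sorting and boundary formation. Semaphorins signal through plexins, which act on small GTPases and integrin adhesion, and the secreted class 3 semaphorins usually need a neuropilin as coreceptor. Slits bind Robo receptors, and netrins bind DCC and the UNC5 receptors.

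SNAI1 is a zinc finger repressor that binds the E-box CAGGTG, so these 6 letters and their reverse complement CACCTG were counted in RefSeq promoters (GRCh38.p14), each 250 bases before and 50 after a start site. A window was listed for 55 of the 64 members, and the called SEMA3A and NRP1 had none and were not searched. The letters were found in 15 of 86 windows of members (17.4%), against 20.6% of 35116 windows of all genes. By gene, 13 of 55 members held a match in any of their windows (23.6%), against 24.1% of all genes with a window. Those are 27305 genes, a wider set than the 18417 measured. Of the called members with a window, 2 of 4 lowered and 0 of 4 raised held a match, and this difference was not tested. The 250 bases before a start site are shown for SEMA3F, the most lowered member, which holds a match, for EFNB1, the most lowered ephrin, which holds no match, for NTN4, the most raised member, which holds none either, and for ROBO1, which held a match and was higher by a little less than 2-fold. Capitals mark CAGGTG or CACCTG on the strand shown, 5′ to 3′.
SEMA3F (chr3:50154808-50155057, plus strand): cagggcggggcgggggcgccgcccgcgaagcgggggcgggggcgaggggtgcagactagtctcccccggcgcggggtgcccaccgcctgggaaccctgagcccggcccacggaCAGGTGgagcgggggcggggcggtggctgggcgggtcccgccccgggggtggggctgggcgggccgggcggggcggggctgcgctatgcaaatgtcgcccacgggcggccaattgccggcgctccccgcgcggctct
EFNB1 (chrX:68828771-68829020, plus strand): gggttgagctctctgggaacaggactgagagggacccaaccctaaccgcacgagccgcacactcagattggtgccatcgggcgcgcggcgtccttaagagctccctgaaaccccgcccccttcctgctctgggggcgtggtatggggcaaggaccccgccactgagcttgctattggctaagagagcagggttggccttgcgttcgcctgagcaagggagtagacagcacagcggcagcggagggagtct
NTN4 (chr12:95790765-95791014, minus strand): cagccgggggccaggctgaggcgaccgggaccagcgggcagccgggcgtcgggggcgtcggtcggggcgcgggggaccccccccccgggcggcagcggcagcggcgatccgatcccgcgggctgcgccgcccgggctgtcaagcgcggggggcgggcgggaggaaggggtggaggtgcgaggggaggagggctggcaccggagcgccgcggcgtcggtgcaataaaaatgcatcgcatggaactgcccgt
ROBO1 (chr3:79019460-79019709, minus strand): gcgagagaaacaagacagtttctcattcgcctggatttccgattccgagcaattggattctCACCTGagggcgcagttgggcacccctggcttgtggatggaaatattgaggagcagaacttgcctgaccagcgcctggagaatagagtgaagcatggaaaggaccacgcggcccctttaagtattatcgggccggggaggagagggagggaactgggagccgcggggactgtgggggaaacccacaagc
In the SEMA3F stretch CAGGTG begins 137 bases before the start site and is found in 1 of 3 windows of the gene, and in the ROBO1 stretch CACCTG begins 189 bases before the start site and is found in 1 of 2. Such a match is a run of letters and does not show binding.

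Of the 64 members, 5 rose and 5 fell in MCF10A-SNAI1 cells and 54 were not called. This made 15.6% of members called, against 5.64% of all 18417 genes, of which 3.1% rose and 2.54% fell. A further 14 members passed an adjusted p below 0.01 from limma but changed less than 2-fold, 9 of them higher and 5 lower, which brought the members past the adjusted p to 37.5%, against 23.2% of all genes. The arrays of the lines did not overlap for 35 members (54.7%), against 48.3% of all genes. The median log2 fold change of the members was 0.02, against -0.01 for all genes, and the median of its size without sign was 0.24, against 0.15. The genes that rose were NTN4, EPHB6, EPHA4, EFNA5 and NRP1, and those that fell were SEMA3F, EFNB1, SEMA3A, EFNA1 and PLXNB1. Among 32 ligands 2 rose and 4 fell, and among 32 receptors 3 rose and 1 fell. The mean levels of 4 members, EPHA6, SEMA3D, SEMA3E and SEMA6A, lay within the lowest 20% of values of the table in both lines, and none of these passed the adjusted p.

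**Figure D1:**
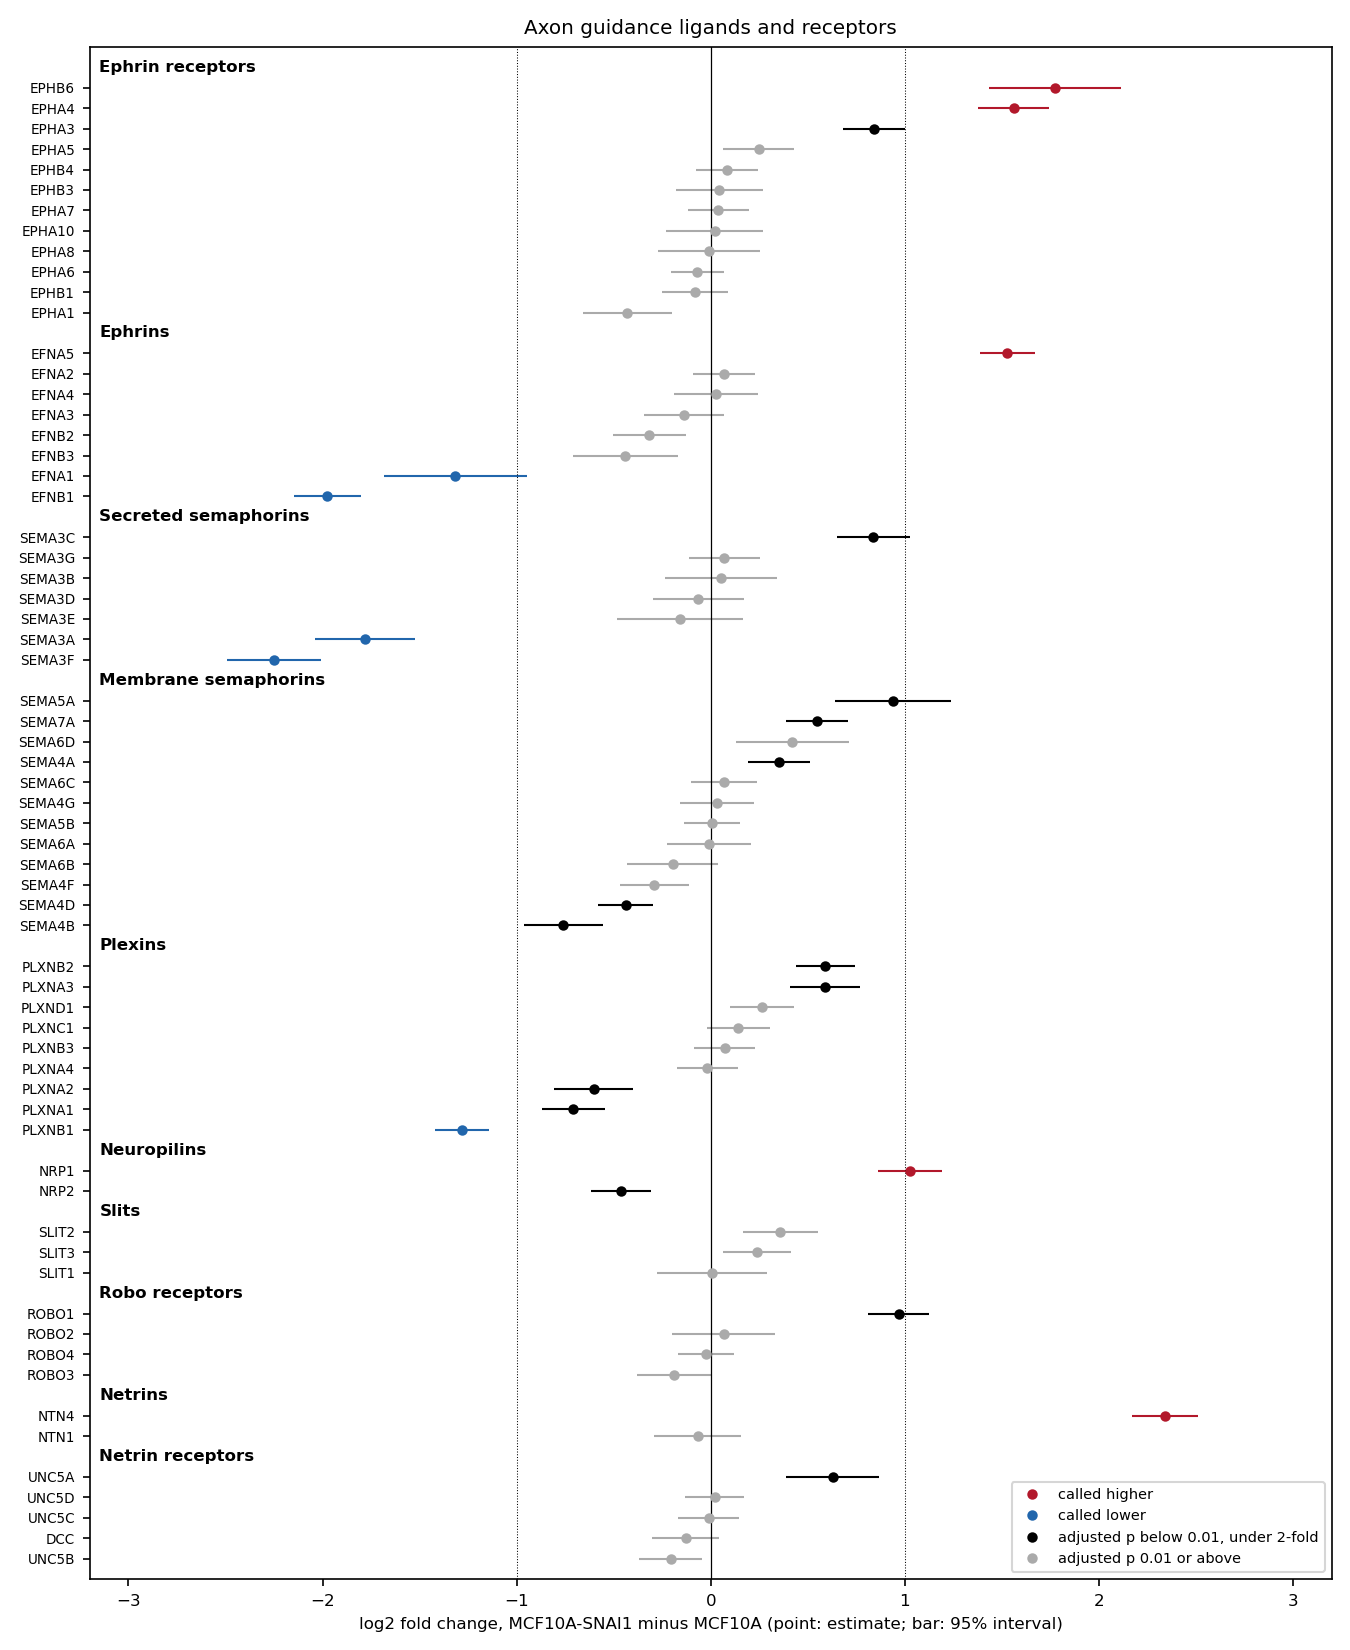
Log2 fold change (MCF10A-SNAI1 minus MCF10A, x axis) of the 64 members in rows by family, with a point for the estimate and a bar for its 95% interval from limma, and dotted lines at 2-fold. NTN4 lies highest at 2.34 and SEMA3F lowest at -2.25, and most families hold members on both sides of 0.

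Among the Eph receptors, EPHA4 and EPHB6 rose and the other 10 measured were not called. EPHA4, a receptor that binds ephrins of both classes, was at 7.12, 7.13 and 7.20 on the MCF10A-SNAI1 arrays and at 5.48, 5.71 and 5.59 on the MCF10A arrays. The lines were well apart, with a log2 fold change of 1.56 (standard error 0.076, 2.95-fold, adjusted p = 1.49e-05 from limma). EPHB6, an Eph receptor without kinase activity, measured 7.92, 7.86 and 7.82 in MCF10A-SNAI1 cells and 6.40, 6.09 and 5.80 in MCF10A cells. Here the MCF10A arrays were spread more widely (SD 0.30) than the MCF10A-SNAI1 arrays (SD 0.047), without overlap, and the log2 fold change was 1.77 (standard error 0.14, 3.42-fold, adjusted p = 1.50e-04 from limma). EPHA3 was higher under 2-fold, at 6.26 ± 0.060 in MCF10A-SNAI1 cells and 5.42 ± 0.069 in MCF10A cells (SD, n = 3 arrays each), a log2 fold change of 0.84 with an adjusted p of 1.42e-04 from limma. EPHB4, the usual receptor of EFNB2 in vessels, was at 9.16 ± 0.035 in MCF10A-SNAI1 cells and 9.08 ± 0.085 in MCF10A cells (SD, n = 3 arrays each), a log2 fold change of 0.08 with a 95% interval of -0.07 to 0.24. EPHA1, known from epithelia, had non-overlapping arrays and a log2 fold change of -0.43 that missed the threshold (adjusted p = 0.0167 from limma), and it passed after quantile normalization (adjusted p = 0.00965). The other 7 Eph receptors had log2 fold changes between -0.08 and 0.25.

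The ephrins moved in both directions within the A class. EFNA5, a ligand anchored by a lipid tail like all of its class, was at 9.55, 9.66 and 9.58 in MCF10A-SNAI1 cells and at 8.06, 8.04 and 8.10 in MCF10A cells. These arrays were close within each line, and the gene rose with a log2 fold change of 1.53 (standard error 0.060, 2.88-fold, adjusted p = 5.43e-06 from limma). EFNA1, first found as a gene induced by tumor necrosis factor in endothelium, was at 6.84, 6.78 and 6.88 in MCF10A-SNAI1 cells and at 8.01, 8.53 and 7.91 in MCF10A cells. It fell by 1.32 on the log2 scale (standard error 0.16, 2.49-fold lower, adjusted p = 8.84e-04 from limma), and MCF10A replicate 2 lay above the other MCF10A arrays. Without that array the log2 fold change was -1.13 and the call was kept, but with the methods' t-test EFNA1 was not called (adjusted p = 0.0180 after Benjamini-Hochberg adjustment). Among the transmembrane ephrins of the B class, which also signal into the cell that carries them, EFNB1 was at 7.40, 7.20 and 7.24 in MCF10A-SNAI1 cells and at 9.29, 9.21 and 9.28 in MCF10A cells. It fell by 1.98 on the log2 scale (standard error 0.073, 3.93-fold lower, adjusted p = 4.00e-06 from limma), the strongest fall of any ephrin measured. EFNB2 and EFNB3 had non-overlapping arrays and log2 fold changes of -0.32 and -0.44, with 95% intervals of -0.51 to -0.13 and -0.71 to -0.17, but neither passed the adjusted p (0.0273 and 0.0298 from limma). The other 3 ephrins, EFNA2, EFNA3 and EFNA4, lay between -0.14 and 0.07.

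**Figure D2:**
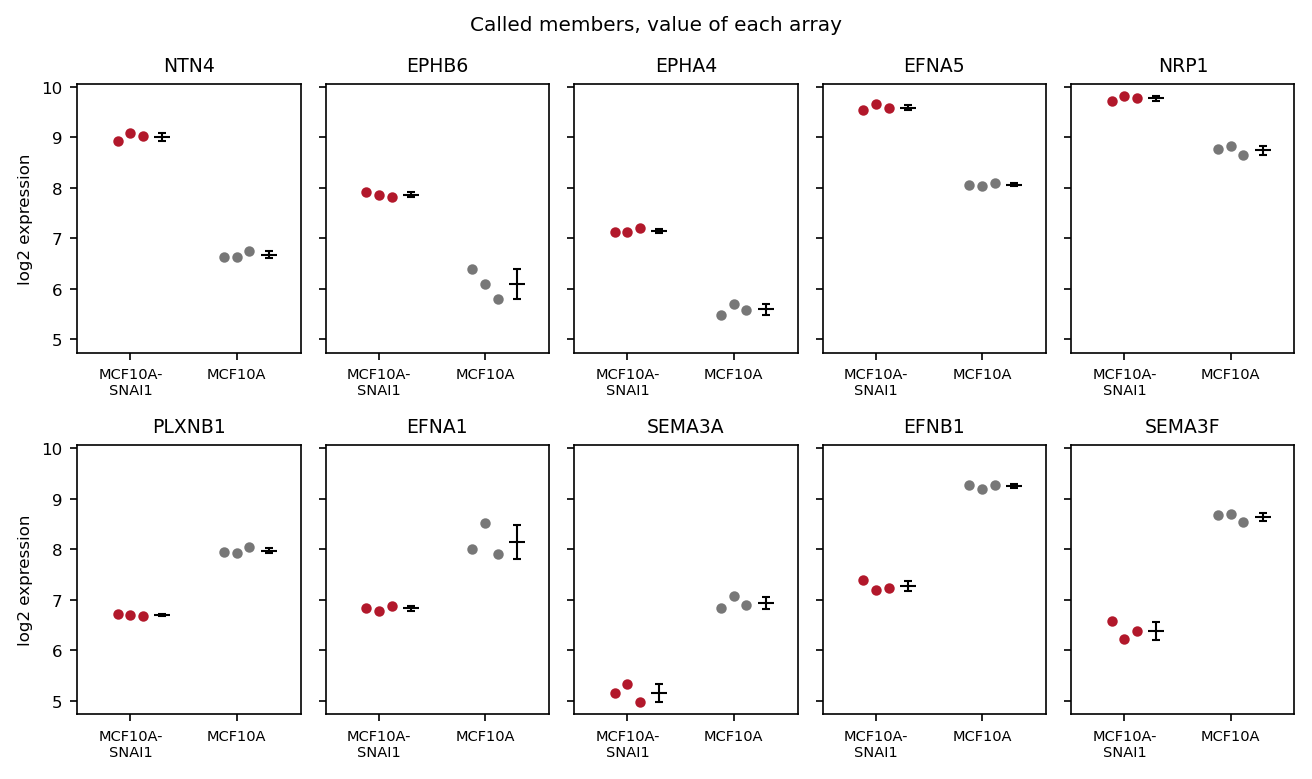
Log2 expression (y axis) of the 10 called members on each MCF10A-SNAI1 array (red) and each MCF10A array (grey), with a black bar for mean ± SD (n = 3 arrays). In no panel do the lines overlap, but the genes were picked by their call, and 48.3% of all genes did not overlap. EFNA1 and EPHB6 show the widest spread among the MCF10A arrays.

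Of the secreted class 3 semaphorins, SEMA3F and SEMA3A fell and the other 5 were not called. SEMA3F, which repels through NRP2 and is encoded in a region of the short arm of chromosome 3 often deleted in lung cancer, was at 6.58, 6.22 and 6.38 in MCF10A-SNAI1 cells and at 8.67, 8.71 and 8.54 in MCF10A cells. The lines stood far apart, and the log2 fold change was -2.25 (standard error 0.10, 4.75-fold lower, adjusted p = 1.09e-05 from limma). SEMA3A, the first known collapsing factor of growth cones and a ligand of NRP1, was at 5.16, 5.34 and 4.98 in MCF10A-SNAI1 cells and at 6.85, 7.08 and 6.91 in MCF10A cells. It fell by 1.78 on the log2 scale (standard error 0.11, 3.44-fold lower, adjusted p = 4.16e-05 from limma). SEMA3C, which can act through either neuropilin, was higher under 2-fold, without overlap of the lines. It was at 9.87, 9.99 and 9.97 in MCF10A-SNAI1 cells and at 9.02, 9.24 and 9.06 in MCF10A cells, a log2 fold change of 0.84 (standard error 0.080, adjusted p = 3.31e-04 from limma). The remaining 4 lay between -0.16 and 0.07.

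The neuropilins went in opposite directions. NRP1, coreceptor of SEMA3A and of vascular endothelial growth factor, was at 9.72, 9.82 and 9.79 in MCF10A-SNAI1 cells and at 8.77, 8.82 and 8.65 in MCF10A cells. It rose just past the fold threshold, with a log2 fold change of 1.03 (standard error 0.069, 2.04-fold, adjusted p = 6.56e-05 from limma), and without MCF10A replicate 3 the log2 fold change was 0.98 and the gene was not called. NRP2, coreceptor of SEMA3F, was at 6.25, 6.26 and 6.36 in MCF10A-SNAI1 cells and at 6.81, 6.75 and 6.70 in MCF10A cells. It was lower under 2-fold, with a log2 fold change of -0.46 (standard error 0.065, adjusted p = 0.00203 from limma). A second and dimmer probe set of NRP2 had a log2 fold change of -0.13 and did not pass (adjusted p = 0.344 from limma). NRP2 also missed the threshold without MCF10A replicate 2 and without MCF10A-SNAI1 replicate 2 (adjusted p = 0.0102 and 0.0109 from limma).

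Plexins were also divided. PLXNB1, the receptor of SEMA4D, was at 6.71, 6.70 and 6.67 in MCF10A-SNAI1 cells and at 7.96, 7.94 and 8.04 in MCF10A cells. The arrays of each line nearly coincided, and PLXNB1 fell by 1.28 on the log2 scale (standard error 0.059, 2.43-fold lower, adjusted p = 1.18e-05 from limma). PLXNB2, of the same class, was higher under 2-fold, at 10.18 ± 0.047 in MCF10A-SNAI1 cells and 9.59 ± 0.063 in MCF10A cells (SD, n = 3 arrays each, log2 fold change 0.59, adjusted p = 5.74e-04 from limma). In the A class, which pairs with neuropilins, PLXNA1 and PLXNA2 were lower under 2-fold at -0.71 and -0.60 and PLXNA3 was higher at 0.59 (adjusted p = 3.37e-04, 0.00203 and 0.00133 from limma). The arrays of the lines did not overlap for any of these genes, which were picked by their adjusted p, nor for 48.3% of all genes. The remaining plexins, PLXNA4, PLXNB3, PLXNC1 and PLXND1, had log2 fold changes between -0.02 and 0.26.

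**Figure D3:**
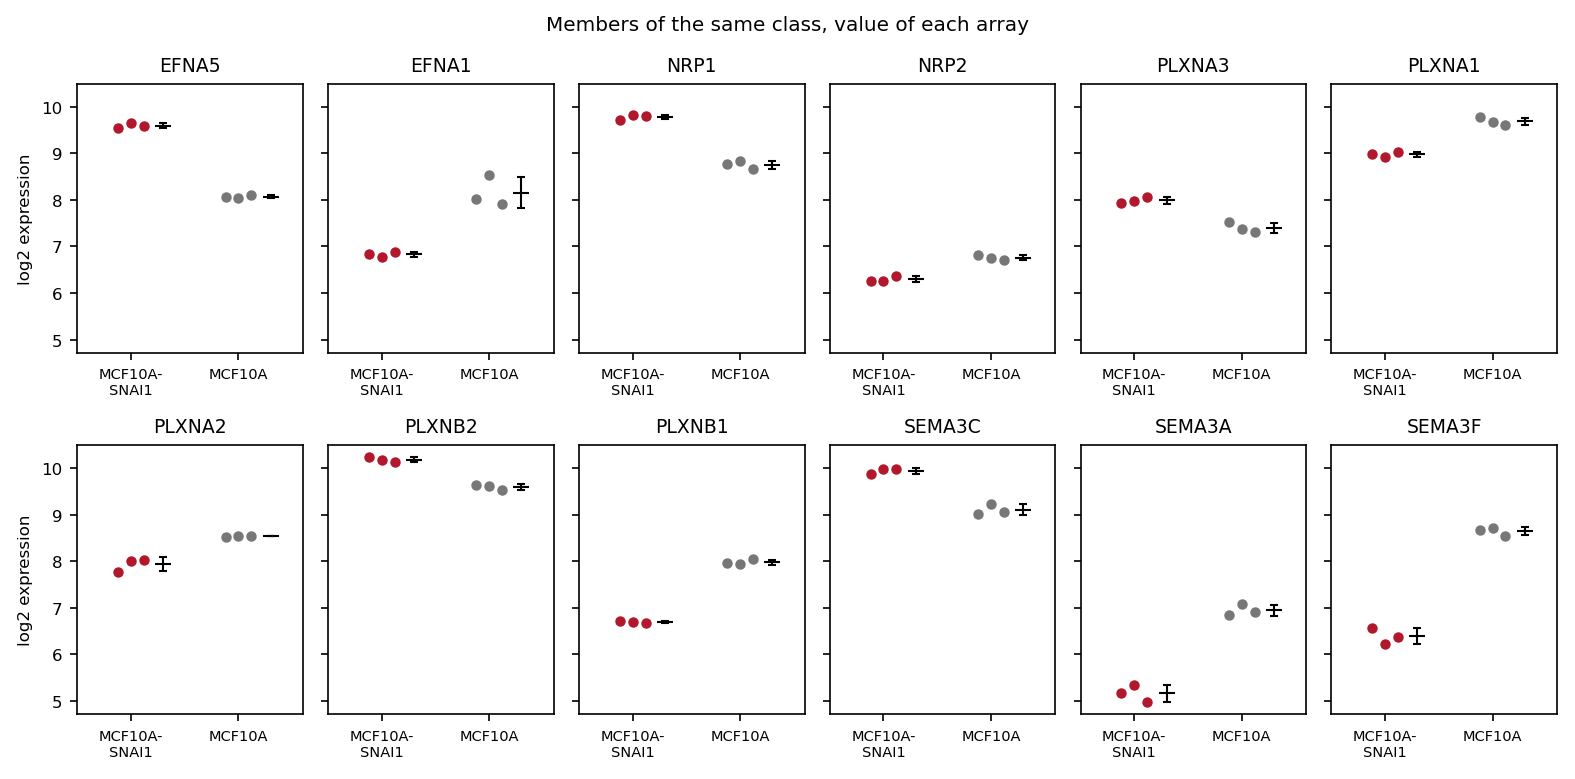
Log2 expression (y axis) on each MCF10A-SNAI1 array (red) and each MCF10A array (grey), with a black bar for mean ± SD (n = 3 arrays). Shown are the A class ephrins, neuropilins, plexins and class 3 semaphorins that passed an adjusted p below 0.01 from limma. EFNB1, a B class ephrin that also passed, is not shown. Each group shown holds a gene higher and a gene lower in MCF10A-SNAI1 cells, such as NRP1 at 1.03 and NRP2 at -0.46 on the log2 scale.

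None of 12 measured membrane-bound semaphorins was called by limma, against 5.64% of all genes. Of the 12, 5 passed the adjusted p (41.7%, against 23.2% of all genes), 3 of them higher and 2 lower. SEMA5A, which has thrombospondin repeats, was at 6.45, 5.95 and 6.14 in MCF10A-SNAI1 cells and at 5.29, 5.23 and 5.19 in MCF10A cells. Its log2 fold change of 0.94 (standard error 0.13, adjusted p = 0.00160 from limma) stayed under 2-fold, and it was 1.06 and called without MCF10A-SNAI1 replicate 2, the lowest array of that line. SEMA7A, a lipid-anchored ligand of PLXNC1 and of integrins, was higher at 0.55, and SEMA4A, known from immune cells, at 0.35 (adjusted p = 0.00107 and 0.00799 from limma). SEMA4A missed the threshold whichever array was left out, with adjusted p between 0.0143 and 0.0325 from limma. SEMA4B was lower at -0.76 (adjusted p = 7.55e-04 from limma). SEMA4D, the ligand of PLXNB1, was at 5.85, 5.81 and 5.76 in MCF10A-SNAI1 cells and at 6.21, 6.23 and 6.30 in MCF10A cells, with a log2 fold change of -0.44 (adjusted p = 0.00174 from limma). Its second probe set was at 0.03 with an adjusted p of 0.842, and the mean of both did not pass (adjusted p = 0.0421 from limma). The class 6 semaphorins, SEMA4F, SEMA4G and SEMA5B did not pass the adjusted p, at values between -0.29 and 0.42.

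NTN4 showed the largest change of any member. NTN4 is a netrin of basement membranes that binds laminin, and it was at 8.92, 9.09 and 9.02 in MCF10A-SNAI1 cells and at 6.63, 6.64 and 6.75 in MCF10A cells. The lines were separated by far more than the spread within either, and the log2 fold change was 2.34 (standard error 0.072, 5.06-fold, adjusted p = 1.75e-06 from limma). NTN1, the classical netrin, was at 8.57, 8.34 and 8.30 in MCF10A-SNAI1 cells and at 8.56, 8.36 and 8.49 in MCF10A cells. These arrays overlapped, with a log2 fold change of -0.07 and a 95% interval of -0.29 to 0.16. Of the netrin receptors, UNC5A was higher under 2-fold at 0.63 (adjusted p = 0.00366 from limma), and UNC5B lay at -0.21 (95% interval -0.37 to -0.04, adjusted p = 0.0744 from limma). UNC5C, UNC5D and DCC, the receptor for attraction, lay between -0.13 and 0.02.

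The Slit and Robo genes held no called member, against 5.64% of all genes called. ROBO1, a receptor of the Slits, came closest, at 8.70, 8.63 and 8.70 in MCF10A-SNAI1 cells and at 7.81, 7.67 and 7.66 in MCF10A cells. All MCF10A-SNAI1 arrays lay above all MCF10A arrays, with a log2 fold change of 0.97 (standard error 0.067, 1.96-fold, adjusted p = 7.11e-05 from limma). Without MCF10A replicate 1 the log2 fold change was 1.01 and ROBO1 was called, so it lay at the fold threshold, as did NRP1 on the other side of it. SLIT2, a ligand of ROBO1, was at 7.02, 7.20 and 7.11 in MCF10A-SNAI1 cells and at 6.87, 6.65 and 6.74 in MCF10A cells, a log2 fold change of 0.36 that missed the threshold (adjusted p = 0.0183 from limma). The other Slit and Robo genes lay between -0.19 and 0.24 and did not pass.

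Genes that act with these receptors were listed by role. Of 79 measured coreceptors, adaptors and effectors, 6 rose and 4 fell (12.7% called, against 5.64% of all genes). A further 21 passed the adjusted p under 2-fold, 16 higher and 5 lower. This brought those past the adjusted p to 39.2%, against 23.2% of all genes. The list held fewer dim genes than the array. In either or both lines, 62 of 79 genes lay above the median of all values, against 11615 of 18417 genes. After the filter at the median of probe set means, 7.59% of the remaining genes were called. NEO1, a receptor related to DCC that also binds repulsive guidance molecules, rose to 7.85 ± 0.030 in MCF10A-SNAI1 cells, against 6.78 ± 0.031 in MCF10A cells (SD, n = 3 arrays each, log2 fold change 1.07, adjusted p = 2.20e-05 from limma). FYN, a Src family kinase used downstream of ephrins, plexins and netrin receptors, was at 9.10, 9.20 and 9.17 in MCF10A-SNAI1 cells and at 6.99, 6.94 and 7.01 in MCF10A cells, a log2 fold change of 2.18 (standard error 0.061, adjusted p = 1.23e-06 from limma). CHN1, the Rac GTPase-activating protein chimaerin that acts below EPHA4, rose with a log2 fold change of 2.02 (9.10 ± 0.15 in MCF10A-SNAI1 and 7.08 ± 0.10 in MCF10A cells, SD, n = 3 arrays each). DPYSL3, a member of the family of collapsin response mediators that act below SEMA3A, fell by 2.39 on the log2 scale to 6.03 ± 0.11 in MCF10A-SNAI1 cells, against 8.42 ± 0.11 in MCF10A cells (SD, n = 3 arrays each, adjusted p = 3.43e-06 from limma). Also lower was MICAL2, of the oxidoreductases that act on actin below plexins, with a log2 fold change of -1.22. The actin-binding ABLIM1 and the cofilin kinase LIMK2 were lower at -1.14 and -1.34. Other genes of these families did not fall alike. DPYSL2, MICAL1 and ABLIM3 were higher under 2-fold, at 0.62, 0.50 and 0.39 (adjusted p = 5.87e-04, 9.38e-04 and 0.00270 from limma). CRMP1, DPYSL4, DPYSL5, MICAL3 and LIMK1 did not pass the adjusted p, at -0.11, 0.04, -0.04, -0.21 and -0.06. ARHGAP35, which encodes p190RhoGAP, and the kinase PAK2 each rose with a log2 fold change of 1.22, and DAPK1, a death-associated kinase that binds UNC5B, rose with 2.67.

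**Figure D4:**
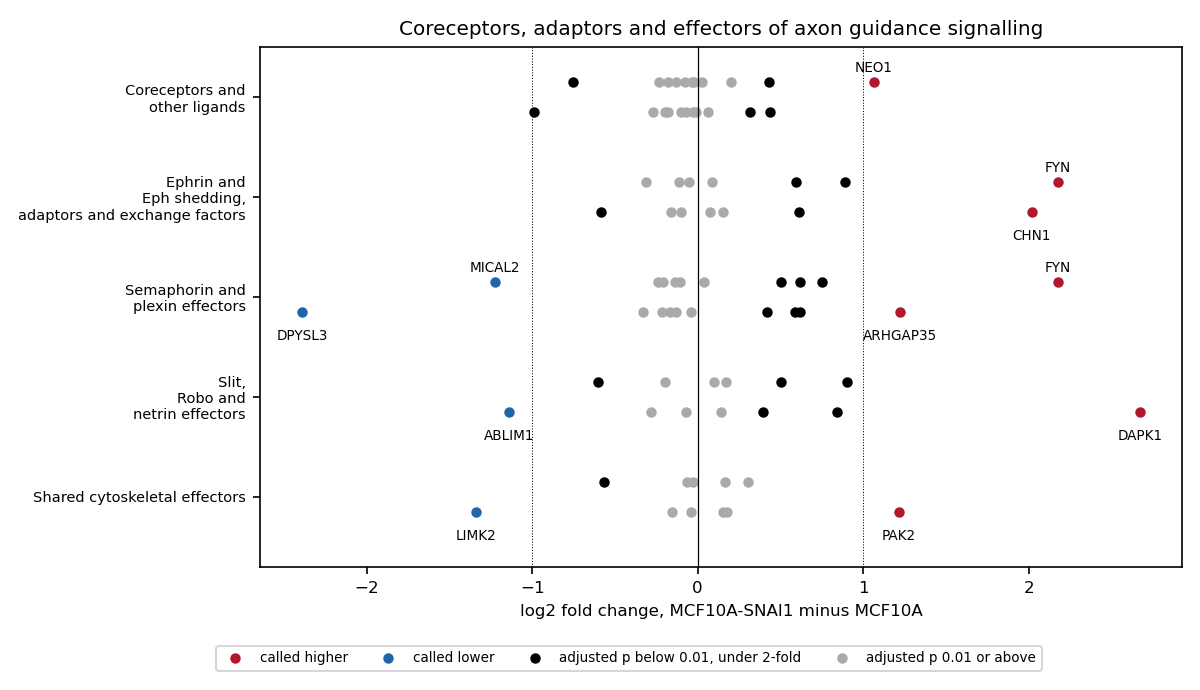
Log2 fold change (MCF10A-SNAI1 minus MCF10A, x axis) of 79 coreceptors, adaptors and effectors by role, with a point per gene (FYN stands in 2 roles), called genes named and dotted lines at 2-fold. FYN at 2.18 and DAPK1 at 2.67 lie far to the right and DPYSL3 at -2.39 far to the left.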

How the data were processed

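Total RNA of 3 MCF10A-SNAI1 and 3 MCF10A samples was measured on Affymetrix HuGene arrays. The table deposited by the authors holds log2 expression of 33297 probe sets. GC RMA in GeneSpring is described in the article, whereas GCOS, Affymetrix Expression Console 1.1 and MAS5 are listed in the submitters' processing notes. The program behind the table was not given in the sources used here, and without detection calls a low level does not separate weak from absent expression. The background correction was not varied, and it can change the fold change of dim genes. Of the probe sets, 19460 had 1 gene symbol, 1754 several and 12083 none in the names used here.

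Differential expression was computed on all probe sets in R 4.3.3 with limma 3.58.1 and Benjamini-Hochberg adjustment. The script was tested on simulated data. Named genes were SNAI1, members past the adjusted p, binding partners of called members and called effectors. Marker genes, neighbouring genes and genes of the same families as lowered effectors were added. A gene of these families is not reported here, and 2 listed members without a probe set of a single symbol were not analysed here. The members and lists were chosen with earlier results of these data known. Results were recomputed after quantile normalization or median centring, with filters at low signal, with the replicate number as a block, without single arrays, with trended and robust variances, with the t-test of the article's methods, with the adjusted p alone as threshold and with the mean over a gene's probe sets. The precision is limited by 3 arrays per line.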

Additional observations from a re-analysis of the deposited data

How the results depend on the processing

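All 10 called members kept their direction and their call under quantile normalization, median centring, the 20th percentile filter, trended and robust moderation and the mean of a gene's probe sets. SEMA3A was not tested under the filter at the median of probe set means, which removed it, and 9 members were called there. That filter also removed EPHA3, SEMA4A, SEMA4D and SEMA5A, so the members past the adjusted p under it were partly other genes. The methods' t-test called 9, all but EFNA1. The number of members past the adjusted p, 24 in the report, was 25 under quantile normalization and under median centring, 24 and 23 under the filters, 23 with trended and robust moderation, 28 with the mean of a gene's probe sets and 17 with the methods' t-test. EPHA1 passed under quantile normalization (0.00965), median centring (0.00985), the median filter (0.00500) and the mean of probe sets (0.0037), and EFNB2 and SLIT2 passed under the median filter and the mean of probe sets, where EFNB3 passed too. EPHA1, EFNB2, EFNB3 and SLIT2 have 1 probe set each, so averaging left their values unchanged. That setting was fitted and adjusted over genes in place of all probe sets. SEMA4A was lost with trended and robust moderation (0.0158), and it, EFNA1, PLXNA2, PLXNA3, SEMA4B, SEMA5A and UNC5A with the t-test (0.0105 to 0.0300). NRP2, PLXNA2, SEMA4A, SEMA4D and UNC5A each missed the adjusted p without at least 1 of the arrays. With each array left out in turn, 4 to 6 members were called higher and 5 lower, 20 to 23 passed the adjusted p, and 1027 to 1054 genes were called in all, and of the effectors 6 were called higher and 4 to 5 lower. Without a fold threshold 14 members were higher and 10 lower, 22 effectors were higher and 9 lower, and 4279 genes were called. With the replicate number as a block 10 members were called and 20 passed the adjusted p, without NRP2 (0.0130), PLXNA3 (0.0104), SEMA4A (0.0278) and SEMA4D (0.0118). Arrays with the same number correlated at 0.12, 0.12 and -0.006 in their deviations from the line means, and arrays of different numbers at -0.13 to 0.034. Since not every same-number value was over 0.1, the numbers were not taken to pair the samples, although a weak shared source was not excluded. EFNA4, at 0.03, turned to -0.037 without MCF10A replicate 2 and to -0.020 without MCF10A-SNAI1 replicate 3, in a range of -0.037 to 0.096 with each array left out. With 3 arrays per line, a change near 2-fold, as in NRP1, ROBO1 and SEMA5A, can fall on either side of the threshold.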

Other observations

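Some members lie next to each other in the RefSeq gene table of GRCh38.p14. EFNA4, EFNA3 and EFNA1 follow each other on chromosome 1 with 0 protein-coding genes between them. EFNA1 was called lower at a log2 fold change of -1.32, whereas EFNA3 and EFNA4 were at -0.14 and 0.03 (adjusted p = 0.357 and 0.888 from limma). On chromosome 7, SEMA3E, SEMA3A and SEMA3D follow each other with 0 protein-coding genes between them, and 3 such genes lie between SEMA3C and SEMA3E. SEMA3A was called lower at -1.78, SEMA3C was higher under 2-fold at 0.84, and SEMA3E was at -0.16 (adjusted p = 0.516 from limma) and within the lowest 20% of values in both lines. SEMA3D was at -0.06 (adjusted p = 0.745 from limma), also within the lowest 20% in both lines. On chromosome 3, ROBO1 at 0.97 is adjacent to ROBO2 at 0.07. There SEMA3F at -2.25 lies 3 protein-coding genes from SEMA3B at 0.05. The differences between neighbours were not tested.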
